A study of Mus musculus with 4 samples.

Results

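The RNA of 10 heat shock chaperone genes was followed across 6 cell classes of the mouse aorta. The genes were taken by symbol from the 32285 genes of each library: Hspa1a, Hspa1b, Hsph1, Dnajb1, Dnaja1, Hsp90aa1, Hspa8, Hsp90ab1, Hspb1 and Hspa5. All 10 were found in every library, and all 10 passed each filter on low counts used below.

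Chaperones bind unfolded or newly made proteins and help them to fold, to be moved or to be degraded. In the cytosol the Hsp70 proteins work in a cycle with J-domain proteins (the Dnaj genes) and nucleotide exchange factors (Hsph1), and Hsp90 takes over clients such as kinases and steroid receptors. Heat, oxidants and other damage to proteins activate heat shock factor 1, which binds repeats of the letters GAA and their reverse in front of its target genes. Hspa1a and Hspa1b are the classical inducible targets, whereas Hspa8 and Hsp90ab1 are made in most cells at all times. Hspb1 is a small heat shock protein that binds unfolded proteins without ATP and is abundant in muscle, where it is also linked to actin filaments. Hspa5 (BiP) is the Hsp70 of the endoplasmic reticulum and answers to the unfolded protein response rather than to heat shock. Transcripts of inducible chaperones and of immediate early genes are also known to be induced while tissue is dissociated.

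There were 4 libraries, 1 per group. The first pair came from aortas of WT and of LysM-DKO mice fed a normal diet, and the second pair from WT/ApoE-/- and LysM-DKO/ApoE-/- mice fed a western diet. Where 4 values follow each other below, they are in this order. The labels do not spell out DKO. The series title names epsins, and the study is known for mice that lack epsins 1 and 2 in cells with lysozyme M (LysM) promoter activity, that is mainly in myeloid cells. ApoE-/- mice lack apolipoprotein E and develop plaques on western diet, so diet and ApoE genotype change together in every comparison between diets. Age, sex and the number of animals behind a library are not given in the sources used here. Whole aortas were cut up and digested for 90 min at 37 °C with 5 mg/mL of enzymes, and cells were captured with a 10x Genomics 3' kit, which counts unique molecular identifiers (UMIs) per gene and cell barcode.

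Of 13831, 15826, 29724 and 11414 barcodes, 7758, 8230, 13744 and 8133 were kept for holding 1000 UMIs or more, of which no more than 10% were mitochondrial, with median depths of 4167, 3404, 2103 and 6761 UMIs. Pairs of libraries shared 9 to 41 kept barcodes. Xist in the smooth muscle class was at 866 and 856 CPM (UMIs per 1000000 UMIs of the sum) in the normal diet libraries, against 0.61 and 0.46 CPM in the others, while the Y-linked gene Ddx3y was at 0 and 0 against 118 and 122 CPM. Sex as read from the RNA thus differed between diets as well. In the macrophage class Epn1 was at 81.7, 54.5, 52.4 and 42.7 CPM and Epn2 at 35.6, 33.6, 33.2 and 15.7 CPM. For both genes and on both diets the genotypes' Poisson intervals overlapped, and a 3' kit may not read the deleted part.

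Barcodes were put in the first class whose marker UMIs they held: macrophage (C1qa, C1qb, C1qc), B (Cd79a, Ms4a1), T (Cd3d, Cd3e, Trac), endothelial (Pecam1, Cdh5), fibroblast (Pdgfra, Serpinf1) or smooth muscle (Myh11, Cnn1). The classes held 92, 208, 939 and 135 macrophage barcodes, 773, 1121, 503 and 14 B, 738, 645, 315 and 33 T, 732, 880, 394 and 417 endothelial, 628, 751, 634 and 654 fibroblast, and 3690, 3487, 8836 and 6636 smooth muscle barcodes. The sum of 14 B barcodes was left out, which leaves 23 sums. A second set of 8 markers per type, not used by the rule, summed highest in the class of that name in every library, over the 23 sums and leaving aside the B set in LysM-DKO/ApoE-/-. The macrophage set was at 4295 to 7787 CPM in the macrophage class, which also held 1843 to 8049 CPM of the B set, a set that includes the antigen-presentation gene Cd74. For the endothelial class the name holds only in part. Its endothelial markers (Cldn5, Vwf and others) summed to 705, 966, 225 and 358 CPM, against 19.2 to 57.7 CPM in smooth muscle. Yet its Acta2, the actin of smooth muscle, was at 8384 to 13779 CPM, against 15158 to 19252 CPM in the smooth muscle class itself. Between 72% and 88% of its barcodes also met another class's rule. The other classes carried 2362 to 5381 CPM of Acta2, and 21.3% to 71.3% of their barcodes met more than 1 rule. Values from barcodes that met 1 rule only are therefore given beside many ratios whose direction, or side of the 1.5 fold limit, they change. Not every such change is listed, so a ratio given as classed alone may also move. For the endothelial rule, barcodes that met 1 rule only numbered 138, 249, 63 and 51.

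To show the letters that heat shock factor 1 and ATF6 are known to bind, the bases before the start site of 7 members were read from the RefSeq promoter table of GRCm38.p6. Hspa1a lies on the minus strand of chromosome 17 at 34969190 to 34972156 and Hspa1b on the same strand at 34956436 to 34959238, 9951 bases apart (GRCm38, GENCODE M21). Their last 150 bases before the start are given with the Hspb1 stretch of the same length, since these genes carry the largest differences below. Capitals mark the inverted heat shock element (GAANNTTC or TTCNNGAA, both strands searched).
Hspa1a, chr17:34972157-34972306, minus strand: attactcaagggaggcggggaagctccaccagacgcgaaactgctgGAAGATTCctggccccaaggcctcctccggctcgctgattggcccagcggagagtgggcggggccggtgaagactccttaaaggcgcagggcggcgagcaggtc
Hspa1b, chr17:34959239-34959388, minus strand: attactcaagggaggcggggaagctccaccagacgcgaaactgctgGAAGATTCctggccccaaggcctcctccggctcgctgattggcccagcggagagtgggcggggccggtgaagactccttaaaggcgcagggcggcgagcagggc
Hspb1, chr5:135887769-135887918, plus strand: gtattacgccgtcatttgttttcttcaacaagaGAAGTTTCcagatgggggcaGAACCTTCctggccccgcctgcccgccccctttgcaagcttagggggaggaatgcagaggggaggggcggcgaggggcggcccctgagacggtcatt

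Hspa1a and Hspa1b were identical at 247 of the 250 bases before the start, and both held the element at position -104, where -1 is the base before the start site. Hspb1 held it at -117 and again at -97. Short windows show the matches of Hsph1 (at -33), of the first Dnaja1 start site (at -124) and of Hspa5. The capitals mark the same element in Hsph1 and Dnaja1, and in Hspa5 the endoplasmic reticulum stress response element (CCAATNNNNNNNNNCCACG, both strands searched), which is bound by ATF6.
Hsph1, chr5:149636351-149636380, minus strand: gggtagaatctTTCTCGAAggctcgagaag
Dnaja1, chr4:40722333-40722362, plus strand: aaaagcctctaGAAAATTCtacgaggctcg
Hspa5, chr2:34772019-34772048, plus strand: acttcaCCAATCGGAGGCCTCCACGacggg

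The inverted heat shock element was in the 250 bases before 5 of 7 members, against 12.8% of all 32851 promoters in the table, and these letters were not found in the windows of Dnajb1 and Hspa5. The endoplasmic reticulum element was found in Hspa5 and in 0.113% of promoters. Its first letters are also a CCAAT box, which 33.8% of promoters held. Hspa8, Hsp90aa1 and Hsp90ab1 had no entry. Hspa1a and Hspa1b transcripts were 90.5% identical over their whole length and 50.8% over their last 500 bases. How reads that match both genes were counted is not given, so the split between these genes is uncertain and their sum is given as well.

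The inducible Hsp70 genes were called higher in macrophages and smooth muscle and lower in B and T cells. In the macrophage class Hspa1a was at 1177, 765, 200.45 and 316 CPM. The smooth muscle class had 699, 328, 457 and 400.2 CPM and the endothelial class 708, 472, 341 and 266 CPM. Fibroblasts had 321, 218, 212 and 137 CPM. T cells had 160, 114, 179 and 315 CPM, and B cells 235, 107 and 139 CPM in the 3 libraries with enough barcodes. As classed, macrophages led in both normal diet libraries, and smooth muscle led in both western diet libraries. With barcodes of 1 rule only, Hspa1a in macrophages was at 645 CPM in WT on normal diet, below the 699 CPM of smooth muscle, and at 975 CPM in LysM-DKO on normal diet, where macrophages still led. The classes were compared with edgeR's quasi-likelihood test on the sums, each class against the mean of the other 5 with the library as a block, and p-values were Benjamini-Hochberg adjusted over 13819 genes. A gene was called at an adjusted p of at most 0.05. Libraries serve as the replicates of a class (n = 3 for B, otherwise 4). The spread of class differences between libraries includes genotype and diet.

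Across libraries Hspa1a in macrophages was 1.27 above the mean of the other classes on the log2 scale (SE 0.238, adjusted p = 0.00017639). Hspa1b had a difference of 1.26 (SE 0.250, adjusted p = 0.00031235). Smooth muscle was also above the mean, by 0.80 for Hspa1a (adjusted p = 0.0070868) and 0.66 for Hspa1b (adjusted p = 0.029454). The latter call was lost without the WT normal diet library (adjusted p = 0.084294) and without either western diet library (0.0839 without WT/ApoE-/- and 0.08393 without LysM-DKO/ApoE-/-). B cells were lower, at -1.16 for Hspa1a and -1.15 for Hspa1b (adjusted p = 0.0041203 and 0.0059581), and T cells at -0.93 and -1.03 (adjusted p = 0.010806 and 0.0086039). Without the LysM-DKO normal diet library none of these 4 lymphocyte calls held (adjusted p of 0.050845 and 0.062993 in B, 0.09286 and 0.05447 in T). Without the WT normal diet library both T cell calls were lost as well (0.15458 and 0.11885). For endothelial cells (0.55, adjusted p = 0.064169) and fibroblasts (-0.53, adjusted p = 0.0915) Hspa1a missed the threshold.

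**Figure D1:**
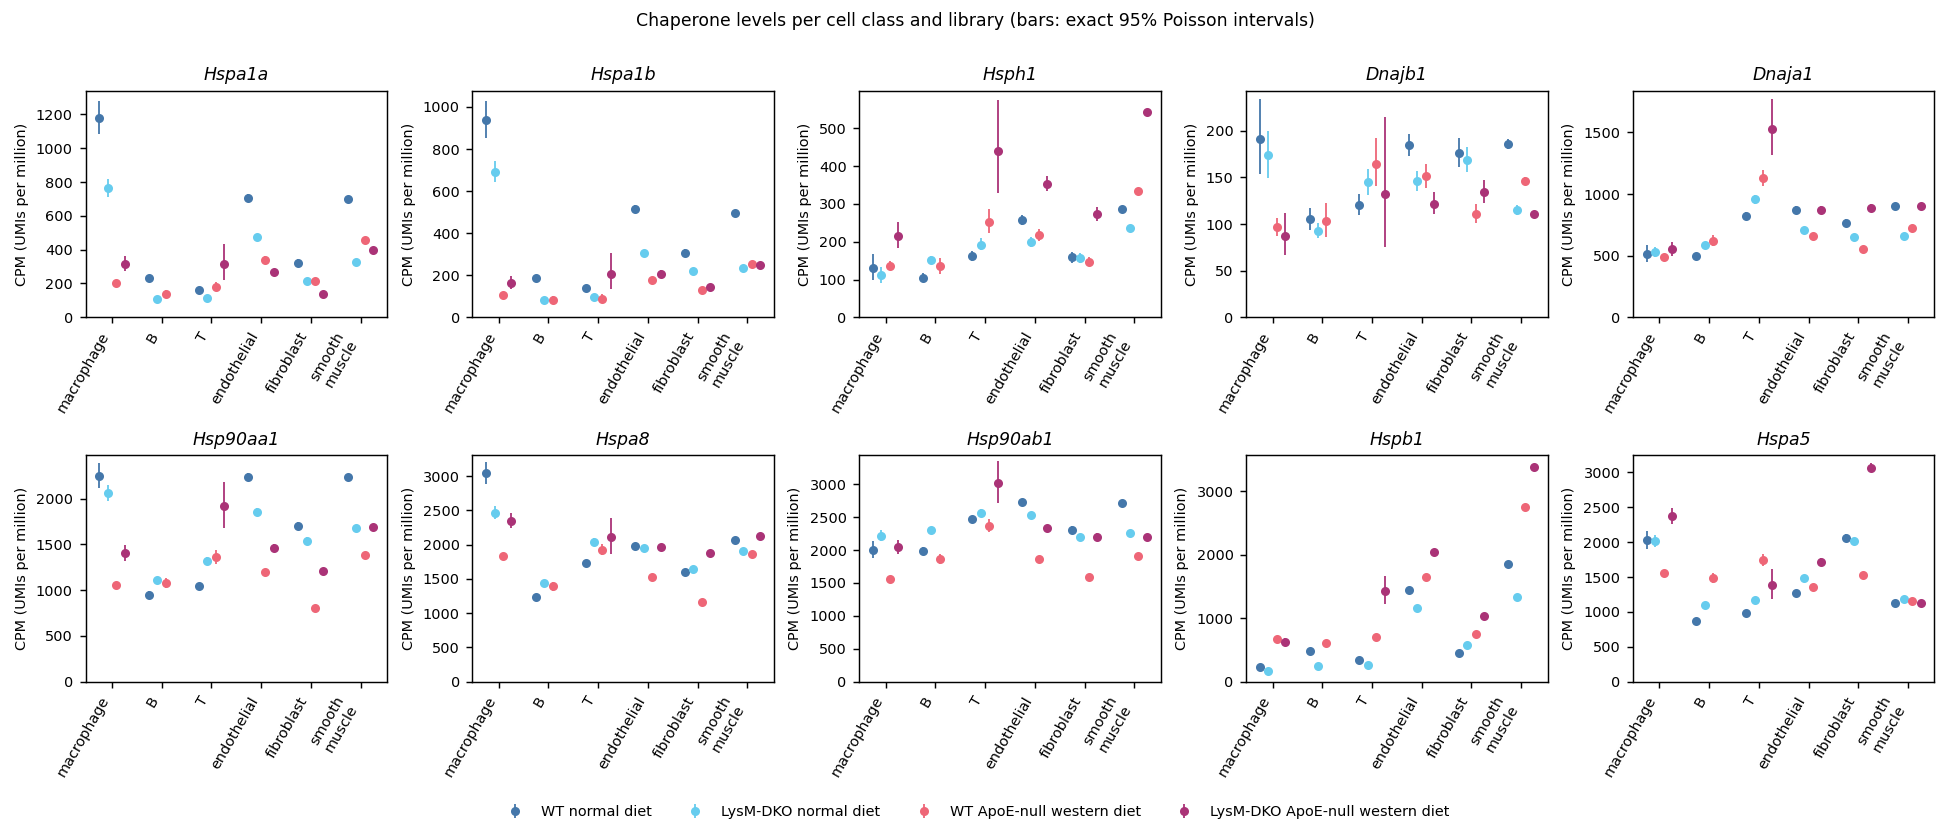
Level in CPM of each chaperone (vertical axes, starting at 0) in 6 cell classes and 4 libraries (colours), with exact 95% Poisson intervals, which cover counting error only. As classed, Hspa1a and Hspa1b stand highest in macrophages of both normal diet libraries, at 765 and 1177 CPM for Hspa1a (975 and 645 CPM with barcodes of 1 rule only, the latter below the 699 CPM of smooth muscle), and Hspb1 stands highest in smooth muscle in all 4 libraries.

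Hspa1a was not spread evenly over barcodes. With each barcode thinned to 1000 UMIs, 47.8%, 43.8%, 16.1% and 28.9% of macrophage barcodes held a UMI of it (77.2%, 65.9%, 35.6% and 49.6% before thinning). In B cells of the 3 usable libraries the thinned share was 15.7%, 8.74% and 8.95%. No class is known to lack the gene, so these shares have no background class. The variance of thinned counts over their mean was 4.23, 2.92, 1.88 and 1.84 in macrophages, where the median gene had 1.03 to 1.24. In every class with at least 50 barcodes the most loaded 10% of barcodes held 43.4% or more of all thinned Hspa1a UMIs. In the LysM-DKO/ApoE-/- T class 3 of 33 barcodes held a thinned UMI, so its 315 CPM rest on few cells. Hspa8, by contrast, had a thinned UMI in 65.7% to 93.5% of barcodes in the 23 sums.

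Hsph1, the exchange factor that resets Hsp70, was led by smooth muscle in each library, at 287, 237, 333 and 542 CPM. The class was 0.81 above the mean of the others on the log2 scale (SE 0.101, adjusted p = 1.1806e-06), a call that no alternative ended. Macrophages (130, 111, 137 and 215 CPM) were at -0.49 (adjusted p = 0.0020318) and B cells (104, 151 and 135 CPM) at -0.48 (adjusted p = 0.004012). The B call was lost without the WT normal diet library (adjusted p = 0.12046). The fibroblast difference of -0.29 (adjusted p = 0.031549) was lost with barcodes of 1 rule only (0.61859) and without any library but WT on normal diet (0.05475 without LysM-DKO, 0.14404 without WT/ApoE-/- and 0.098102 without LysM-DKO/ApoE-/-).

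Of the J-domain partners of Hsp70, Dnaja1 was at 823, 957, 1128 and 1532 CPM in T cells, which led in every library but WT on normal diet. T cells were 0.64 above the mean of the other classes on the log2 scale (adjusted p = 1.8034e-05) and macrophages (515, 529, 492 and 553 CPM) 0.42 below (-0.42, adjusted p = 0.003339). The macrophage call was lost without the LysM-DKO/ApoE-/- library (adjusted p = 0.10159). Dnaja1 overlaps Smu1 and Gm6297 on the other strand and Mir207 on its own. The 23 values of Dnajb1 lay between 86.9 and 191 CPM, and the sole class called was B (-0.51, adjusted p = 0.01413), a call lost without the WT (0.13407) or the LysM-DKO (0.12483) normal diet library.

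The Hsp90 genes split by class. Hsp90aa1, the inducible form, was at 2251, 2062, 1051 and 1405 CPM in macrophages and at 949, 1109 and 1074 CPM in B cells. Macrophages were 0.38 above the mean on the log2 scale (adjusted p = 0.044799) and B cells at -0.46 (adjusted p = 0.037001). Both calls were lost without either normal diet library (adjusted p of 0.11854 and 0.19474 in macrophages, 0.35043 and 0.23506 in B), and the B call also without LysM-DKO/ApoE-/- (0.052572). Hsp90ab1, the constitutive form, stayed within 1556 to 3022 CPM over the 23 sums. T cells were 0.24 above the mean (adjusted p = 0.019237), which did not hold without the WT normal diet library (0.066394), the LysM-DKO normal diet library (0.072243) or the WT/ApoE-/- library (0.051072).

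Hspa8, the constitutive Hsp70, was called higher in macrophages as well. It was at 3037, 2465, 1828 and 2348 CPM there, at 1236, 1443 and 1388 CPM in B cells and at 1594, 1643, 1168 and 1876 CPM in fibroblasts. Macrophages were 0.62 above the mean on the log2 scale (SE 0.103, adjusted p = 4.7361e-05), a call that held in each alternative. B cells were at -0.40 (adjusted p = 0.011827) and fibroblasts at -0.31 (adjusted p = 0.022687). The B call was lost without the WT (0.19681) or LysM-DKO (0.14303) normal diet library. The fibroblast call was lost without the LysM-DKO normal diet (0.084296) or the WT/ApoE-/- (0.089319) library. The small nucleolar RNA genes Snord14c, Snord14d and Snord14e lie inside Hspa8 on its strand.

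Hspb1 was led by smooth muscle, with the endothelial class next to it. Smooth muscle had 1849, 1338, 2753 and 3383 CPM, the endothelial class 1448, 1155, 1640 and 2048 CPM, fibroblasts 457, 574, 747 and 1028 CPM, and macrophages 230, 171, 676 and 619.8 CPM. Smooth muscle was 1.75 above the mean of the other classes on the log2 scale (SE 0.154, adjusted p = 1.0065e-08) and the endothelial class 1.07 above it (SE 0.160, adjusted p = 1.8542e-05). Macrophages were at -1.14 (adjusted p = 5.543e-05), B cells at -0.72 (adjusted p = 0.0066369, 0.063007 without the LysM-DKO normal diet library) and T cells at -0.68 (adjusted p = 0.0041814). In macrophages, B and T cells of the normal diet libraries Hspb1 was at 12.5% to 25.9% of the smooth muscle level and Acta2 at 14.3% to 24.0%. Barcodes that met the endothelial rule alone kept 996, 1041, 692 and 1578 CPM of Hspb1 with 867 to 2345 CPM of Acta2, so there Hspb1 was at 25.1% to 77.8% of the smooth muscle level and Acta2 at 4.50% to 14.8%.

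**Figure D2:**
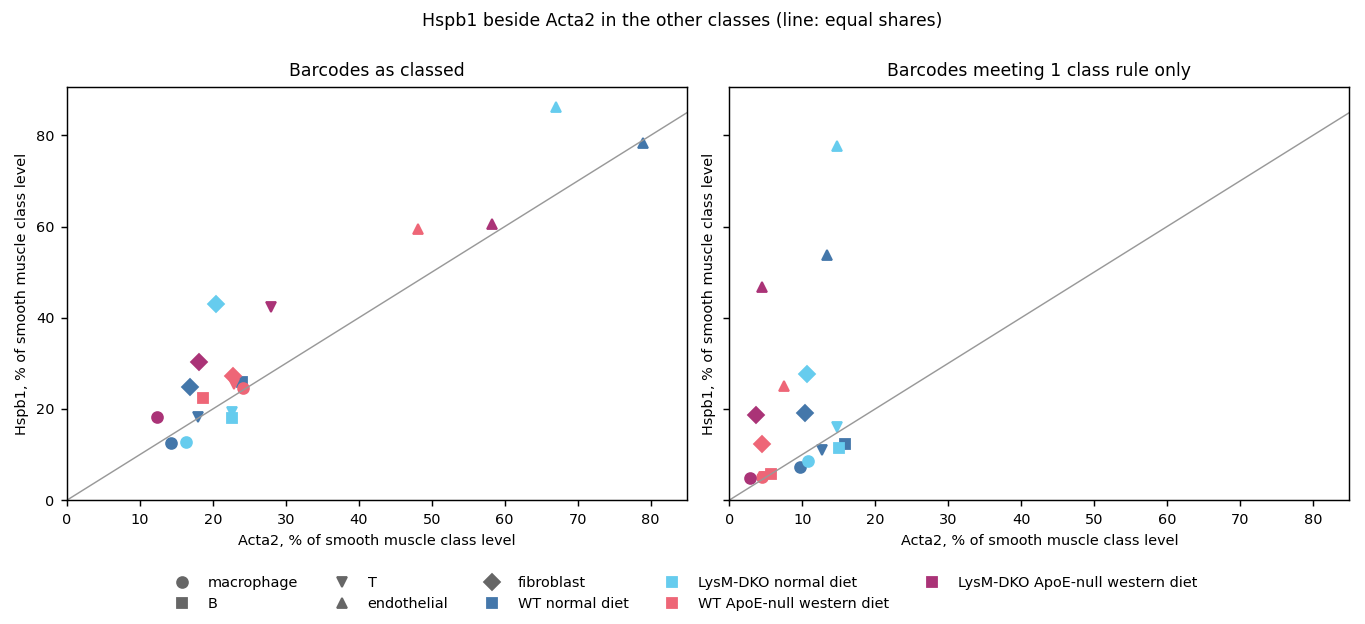
Hspb1 (vertical axis) and Acta2 (horizontal axis) of each class and library as a percent of the level in that library's smooth muscle class, with all barcodes of the class (left) and with barcodes that met 1 class rule only (right); the line marks equal shares. Macrophages, B and T cells lie near the line, except as classed in LysM-DKO/ApoE-/-. There T cells held 42.3% of Hspb1 with 28.0% of Acta2, and macrophages 18.3% with 12.3%. Endothelial barcodes of 1 rule hold 25.1% to 77.8% of the Hspb1 level with at most 14.8% of the Acta2 level.

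Hspa5, the chaperone of the secretory pathway, had its own order of classes. Fibroblasts had 2063, 2012, 1531 and 3069 CPM, macrophages 2034, 2010.3, 1557 and 2374 CPM, and smooth muscle 1122, 1183, 1160.5 and 1127 CPM. Smooth muscle stayed within a narrow range over the 4 libraries, whereas the LysM-DKO/ApoE-/- fibroblasts stood above all other sums. Macrophages were 0.64 above the mean of the other classes on the log2 scale (SE 0.139, adjusted p = 0.00073377) and fibroblasts 0.59 above it (SE 0.139, adjusted p = 0.0014171). Smooth muscle was at -0.48 (adjusted p = 0.0099351), which was lost without the LysM-DKO/ApoE-/- library (0.051853).

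**Figure D3:**
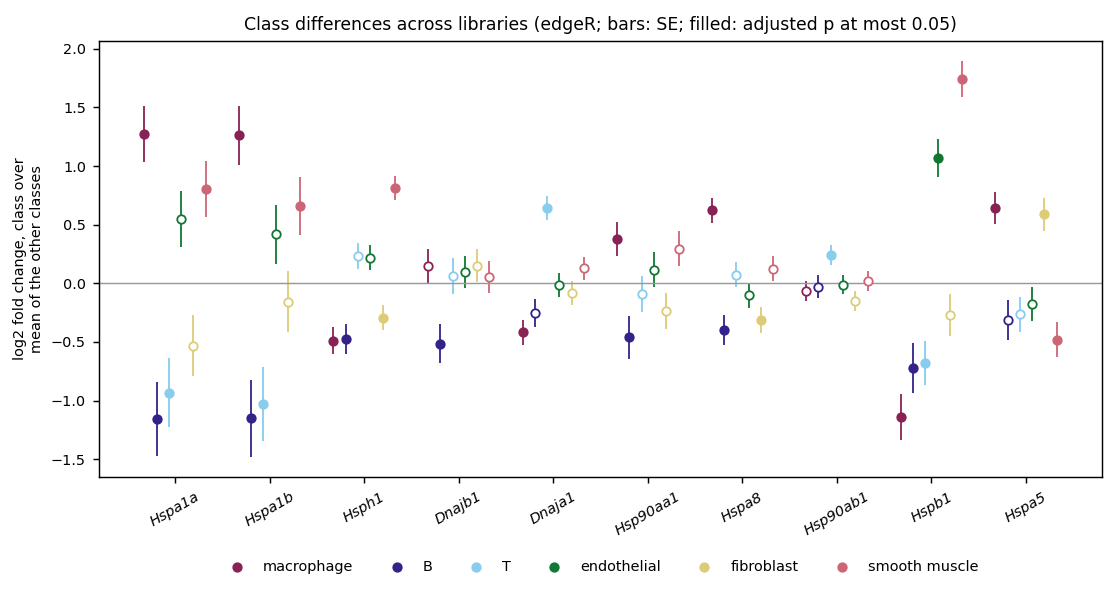
Log2 fold change of each class over the mean of the other 5 (vertical axis) for the 10 chaperones, from the edgeR fit across libraries; bars are standard errors, and filled points have an adjusted p of at most 0.05. The largest differences are those of Hspb1 in smooth muscle (1.75) and of Hspa1a and Hspa1b in macrophages (1.27 and 1.26).

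Counted over the 10 members, macrophages were called higher for 5 and lower for 3, where 21.1% and 22.4% of all genes tested were called. B cells were lower for 7 (28.2% of all genes) and higher for 0 (26.7%), and in B cells 0 were higher at an unadjusted p under 0.05 in edgeR, and 0 with DESeq2. T cells were higher for 2 (26.4%) and lower for 3 (30.1%). The endothelial class was higher for 1 (28.2%) and lower for 0 (18.8%), again 0 at an unadjusted p under 0.05 and 0 with DESeq2. Fibroblasts were higher for 1 (26.1%) and lower for 2 (24.7%), and smooth muscle higher for 4 (28.3%) and lower for 1 (25.7%). The B count of 7 was 1 without the LysM-DKO and 3 without the WT normal diet library. The T count of 3 lower was 1 without either of them, and the fibroblast count of 2 lower was 0 without the WT/ApoE-/- library. T cells higher went from 2 to 1 without any library but LysM-DKO/ApoE-/-, fibroblasts lower from 2 to 1 without either LysM-DKO library, and smooth muscle lower from 1 to 0 without LysM-DKO/ApoE-/-. Macrophages lower went from 3 to 2 without LysM-DKO/ApoE-/-.

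Between groups there was 1 library on each side, so no test was possible and no difference below can be set against a spread between animals. Differences are given as log2 ratios of CPM, with 0.5 UMIs added, and exact 95% binomial intervals, which cover counting error only. A member was counted as past the fold at 1.5 fold or more with at least 50 UMIs over both libraries. On normal diet LysM-DKO was at least 1.5 fold lower than WT in 8 of 60 member values and higher in 0 of 60. Over all genes and classes 3.67% were lower and 7.93% higher.

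Hspa1a and Hspa1b made up 6 of these 8 lower values. As classed, both genes were lower in LysM-DKO in all 6 classes, with a median log2 ratio of -0.60 for Hspa1a and -0.66 for Hspa1b. The smooth muscle ratio of Hspa1a was -1.09 (-1.14 to -1.05) and that of B cells -1.13 (-1.30 to -0.97). The macrophage ratio was -0.62 (-0.78 to -0.47). Among barcodes that met the macrophage rule alone (36 and 75) the order was the opposite, at 645 CPM in WT and 975 CPM in LysM-DKO (log2 ratio 0.59), and so it was for Hspa1b, at 545 and 807 CPM (0.56). In endothelial barcodes of 1 rule only Hspa1b was at 474 and 347 CPM (-0.45), under 1.5 fold. The 2 remaining values past the fold were Dnajb1 in smooth muscle (-0.69) and Hspb1 in B cells (-0.98, or -0.56 and under 1.5 fold with barcodes of 1 rule only). The summed immediate early genes were also lower in LysM-DKO in every class but T cells (8576 and 8995 CPM): the list of 20 summed to 22880 and 18028 CPM in smooth muscle, 19613 and 14787 CPM in macrophages and 22907 and 19823 CPM in fibroblasts, and 13 of its 120 values were past the fold lower against 1 higher. These were 10.8% and 0.833% of its values, against 3.67% lower and 7.93% higher over all values. Atf3 had a median log2 ratio of -0.59 and Fos of -0.53. Their part in the chaperone differences was not tested.

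On western diet the order of the genotypes was different. In LysM-DKO/ApoE-/- 15 of 50 member values were at least 1.5 fold higher than in WT/ApoE-/- and 1 was lower, where 7.55% of all values were higher and 10.6% lower. The T class of 33 barcodes supplied 4 of the 15: Hspa1a (0.83), Hspa1b (1.23), Hspb1 (1.03) and Hsph1. With T barcodes of 1 rule only Hspa1a and Hspa1b were lower, each at 24.6 CPM (1 UMI) against 45.5 and 43.8 CPM. Hspb1 stayed higher, at 271 CPM (11 UMIs) against 138 CPM. Hsph1 accounted for 5 of the 15, being past the fold in each of 5 classes. Its log2 ratio was 0.70 (0.67 to 0.73) in smooth muscle, 0.89 (0.74 to 1.04) in fibroblasts, 0.70 (0.56 to 0.83) in the endothelial class, 0.81 (0.34 to 1.23) in T cells and 0.66 (0.39 to 0.92) in macrophages. With barcodes of 1 rule only it was 0.70 in macrophages, 1.05 in fibroblasts and 1.17 in endothelial cells (257 against 114 CPM). In T cells 1 rule left 17 barcodes in LysM-DKO/ApoE-/-, under the limit of 20. There Hsph1 was at 98.5 CPM (4 UMIs) against 209 CPM in WT/ApoE-/-, the opposite direction. Thinning each barcode to 1000 UMIs turned the macrophage value to -0.19, and subtracting smooth muscle RNA by its Acta2 turned the endothelial value to -0.32. As classed, Dnaja1, Hsp90aa1, Hspa8 and Hsp90ab1 were above 0 in 5 of 5 classes, with median log2 ratios of 0.41, 0.42, 0.36 and 0.35. The first 3 were past the fold in fibroblasts alone and Hsp90ab1 in no class. With endothelial barcodes of 1 rule only, Hspa8 (2154 against 1224.5 CPM) and Dnaja1 (867 against 554 CPM) were past the fold as well. So were Hspb1 (1578 against 692 CPM) and Hspa1b (243 against 111 CPM), while Hspa1a changed direction (198 against 184 CPM, -0.36 as classed). In fibroblasts of 1 rule only Hspb1 (633 against 338 CPM) and Hspa1b (141 against 88.3 CPM) were past the fold too.

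In macrophages Hspa1a was higher in LysM-DKO on western diet, at 316 against 200.45 CPM (log2 ratio 0.66, 0.44 to 0.87), and Hspa1b at 162 against 107 CPM (0.61, 0.29 to 0.90). Fibroblasts went the other way for Hspa1a, at 137 against 212 CPM (-0.63, -0.80 to -0.46), the sole member value past the fold that was lower (-0.43 and under 1.5 fold with barcodes of 1 rule only). Smooth muscle differed little, at 400.2 against 457 CPM for Hspa1a (-0.19) and 250.55 against 252 CPM for Hspa1b (-0.01). Hspa5 was at 3069 against 1531 CPM in fibroblasts (1.004, 0.96 to 1.05) and at 2374 against 1557 CPM in macrophages (0.61, 0.53 to 0.69, with 2482 against 1686 CPM and under 1.5 fold with barcodes of 1 rule only), and was close to even in smooth muscle (-0.04, -0.06 to -0.02). Of the 20 immediate early genes 17 were above 0 in macrophages and 17 in fibroblasts on this diet, with list medians of 0.30 and 0.37. Their part in these differences was not tested.

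**Figure D4:**
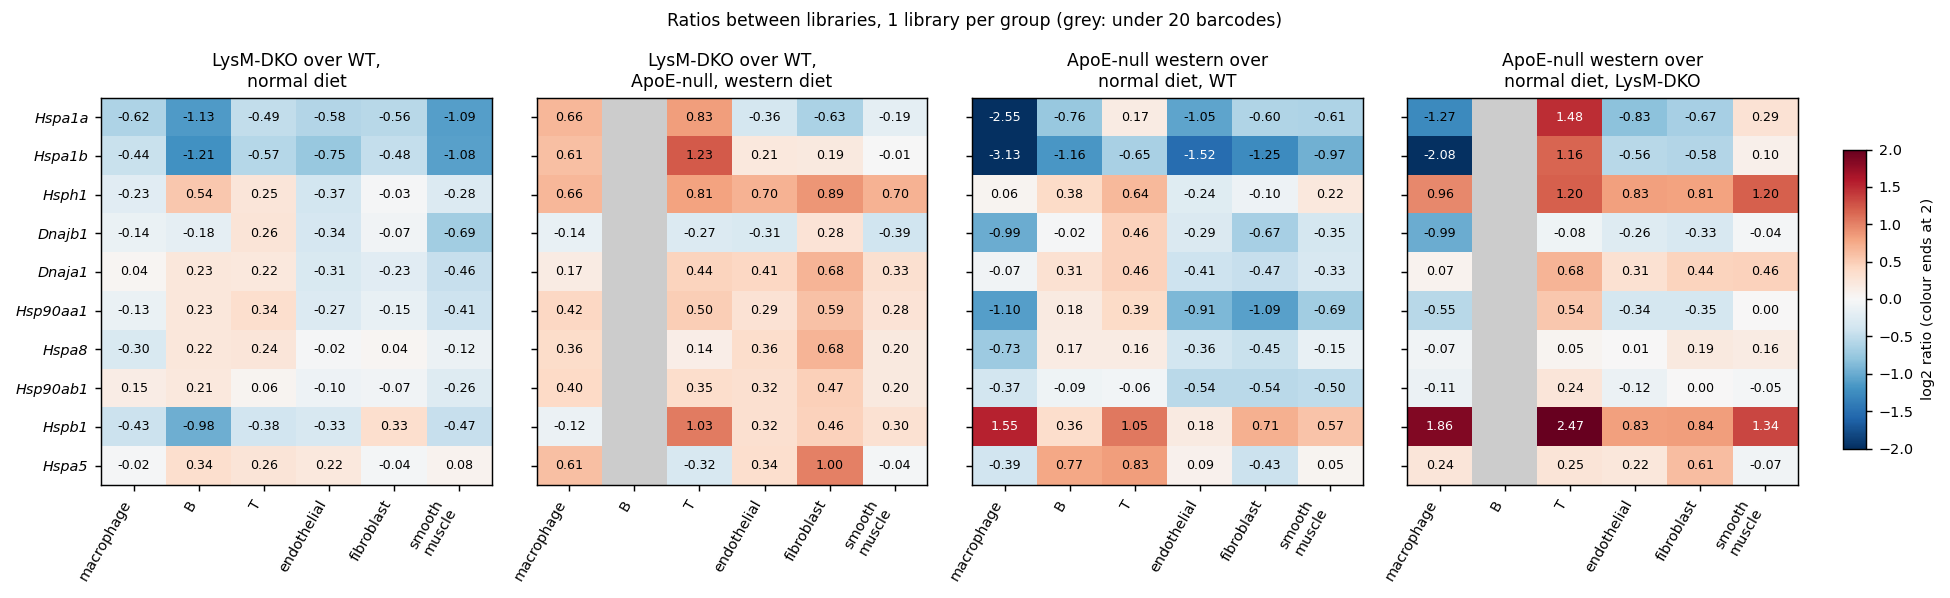
Log2 ratios between libraries for the 10 chaperones (rows) in each cell class (columns) for the 4 comparisons; red is higher and blue lower in the group named first, and grey marks a sum of under 20 barcodes. Hspa1a and Hspa1b are blue throughout LysM-DKO over WT on normal diet, and Hsph1 is red in all 5 classes of both comparisons with LysM-DKO/ApoE-/-.

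Compared with normal diet, WT/ApoE-/- on western diet had 18 of 60 member values at least 1.5 fold lower and 6 higher, where 13.8% of all values were lower and 18.5% higher. Hspa1b was lower in 6 of 6 classes and Hspa1a in 5 of 6. The Hspa1a ratio was -2.55 (-2.71 to -2.39) in macrophages, -1.05 (-1.15 to -0.96) in the endothelial class and -0.61 (-0.65 to -0.58) in smooth muscle, and 0.17 (-0.09 to 0.41) in T cells. With barcodes of 1 rule only Hspa1a in T cells was lower as well, at 45.5 against 128 CPM (-1.475). In macrophages the summed Hspa1a and Hspa1b level was 2113 CPM on normal diet and 308 CPM on western diet. Hsp90aa1 was past the fold lower in 4 of 6 classes, at -1.10 in macrophages, -1.09 in fibroblasts, -0.91 in the endothelial class and -0.69 in smooth muscle. Hsp90ab1 was lower in 6 of 6 classes and past the fold in none (median -0.44). With fibroblast barcodes of 1 rule only it was past the fold, at 1504 against 2346 CPM. Hspa8 in macrophages (-0.73) was under 1.5 fold with barcodes of 1 rule only, at 1916 against 2782 CPM. The median of all genes was itself above 0 in macrophages (0.28), T cells (0.19) and fibroblasts (0.13), so relative to it these members lie lower still.

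As classed, Hspb1 went the other way from the inducible Hsp70 genes in this comparison. Its smooth muscle level was 2753 CPM on western and 1849 CPM on normal diet (log2 ratio 0.57, 0.56 to 0.59). Macrophages had a ratio of 1.55 and T cells of 1.05. But with barcodes of 1 rule only the macrophage levels were 143 and 134 CPM, and the T ratio turned to -0.54 and the fibroblast ratio to -0.07. Hspb1 was then also lower on western diet in B (160 against 226 CPM) and endothelial cells (692 against 996 CPM). Of the members' 6 values past the fold higher, Hspb1 made up 3, Hspa5 in B (0.77) and T cells (0.83) another pair, and Hsph1 in T cells the last (0.64, or 0.35 with barcodes of 1 rule only). Immediate early genes were lower: 59 of 120 values were past the fold lower and 11 higher (49.2% and 9.17%, against 13.8% and 18.5% of all values). The list medians were -0.73 in macrophages, -0.73 in the endothelial class, -0.80 in fibroblasts, -0.75 in smooth muscle and -0.31 in B cells. T cells differed, with a median of 0.12 and 7 values past the fold higher against 2 lower. Atf3 had a median of -1.71 and Egr1 of -1.16. The part of these genes in the chaperone differences was not tested. Diet, ApoE genotype, sex as read from the RNA and software version change together here and cannot be told apart.

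**Figure D5:**
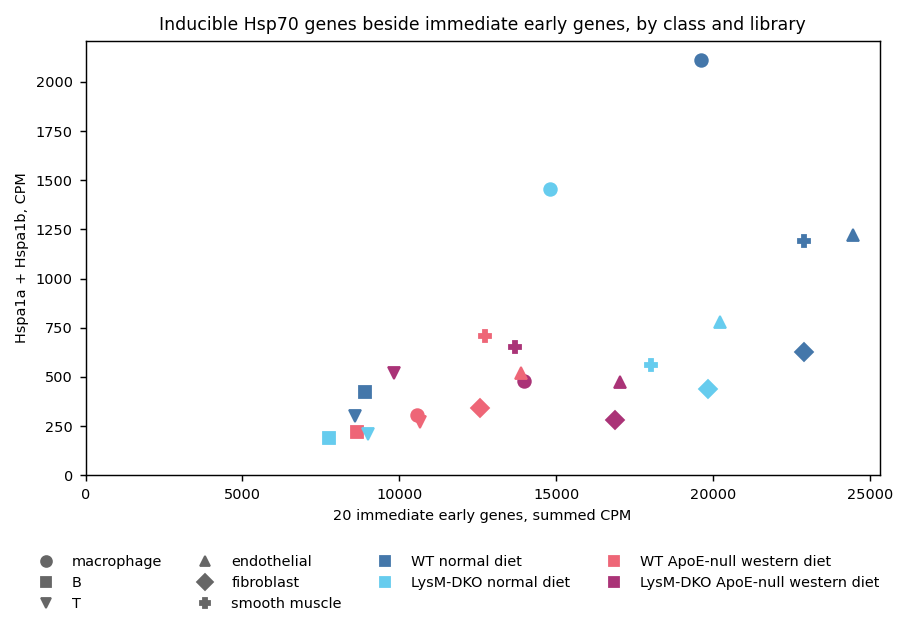
Summed level of Hspa1a and Hspa1b (vertical axis, CPM) against the summed level of 20 immediate early genes (horizontal axis, CPM) for the 23 sums, with symbols for cell classes and colours for libraries. Within macrophages the WT normal diet sum stands highest on both axes, at 2113 and 19613 CPM, and the WT/ApoE-/- sum lowest, at 308 and 10561 CPM.

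LysM-DKO/ApoE-/- on western diet had 14 of 50 member values past the fold higher than LysM-DKO on normal diet and 5 lower, where 14% of all values were higher and 14.6% lower. Hsph1 was higher in 5 of 5 classes, from 0.81 (0.66 to 0.97) in fibroblasts to 1.20 in smooth muscle (1.15 to 1.24) and T cells (0.75 to 1.60). Hspb1 was higher in 5 of 5, with 1.34 (1.32 to 1.36) in smooth muscle and 2.47 in T cells. The T class supplied 5 of the 14 higher values. Its 17 LysM-DKO/ApoE-/- barcodes of 1 rule only had Hsph1 at 98.5 CPM (4 UMIs) against 195 CPM, the opposite direction. Their Hspb1 was at 271 against 213 CPM, under 1.5 fold. With barcodes of 1 rule only the macrophage ratio of Hspb1 went from 1.86 to 0.53 (166 against 114 CPM), which is under 1.5 fold. Subtracting smooth muscle RNA turned the endothelial values of Hsph1 and Hspb1 to -0.46 and -2.055, whereas endothelial barcodes of 1 rule only gave 0.86 and 0.60. Hspa1a and Hspa1b were lower in macrophages, at -1.27 (-1.49 to -1.06) and -2.08 (-2.39 to -1.80), and Hspa1a also in the endothelial class (-0.83) and fibroblasts (-0.67). In the 33 barcodes of the T class Hspa1a (1.48, 0.94 to 1.96) and Hspa1b (1.16) were higher. With T barcodes of 1 rule only both genes pointed the other way, each at 24.6 CPM (1 UMI) against 98.9 and 73.4 CPM. Their smooth muscle ratios were 0.29 and 0.10, unlike the -0.61 and -0.97 between the WT libraries. That difference between genotypes was not tested. Hspa5 was past the fold in fibroblasts alone (0.61).

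Other chaperones were taken from 2 lists. Of 38 further heat shock factor, cytosolic and mitochondrial chaperone genes, smooth muscle was called higher for 17 and lower for 3, led by the small heat shock proteins Hspb6 (log2 fold change 1.82, adjusted p = 2.4456e-10) and Hspb2 (1.70, adjusted p = 5.3421e-10). Macrophages were higher for 3 and lower for 14, with St13, a partner of Hsp70, at 0.44 (adjusted p = 0.00052798) and Dnaja4 at -1.62 (adjusted p = 0.00013061). B cells were higher for 6 and lower for 13, T cells for 9 and 12, the endothelial class for 14 and 8, and fibroblasts for 9 and 8. Of all genes tested, 28.3% were called higher and 25.7% lower in smooth muscle, and 21.1% and 22.4% in macrophages. The shares were 26.7% and 28.2% in B cells, and 26.4% and 30.1% in T cells. They were 28.2% and 18.8% in the endothelial class, and 26.1% and 24.7% in fibroblasts. The T cell and fibroblast counts are near these shares. In fibroblasts Bag3, a heat-inducible exchange factor of Hsp70, was at 1.02 (adjusted p = 2.251e-06). Between genotypes on western diet 33 of 172 values of this list were past the fold higher and 5 lower (19.2% higher against 7.55% of all values). Ahsa2, of a family that activates Hsp90, had the largest median (0.88), and in smooth muscle it was at 36.1, 38.6, 49.97 and 104 CPM. Western over normal diet gave 37 higher and 14 lower of 215 in WT, 17.2% higher against 18.5% of all values, so this count is near the background. In LysM-DKO it gave 48 and 7 of 169, 28.4% higher against 14% of all values. The small heat shock protein Cryab in smooth muscle was at 373, 367, 619 and 544 CPM. On normal diet 8 of 208 were higher in LysM-DKO and 4 lower (3.85% and 1.92%, against 7.93% and 3.67% of all values).

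Of 24 endoplasmic reticulum chaperone and unfolded protein response genes, the list to which Hspa5 belongs by function, fibroblasts were called higher for 18 and lower for 2 and smooth muscle higher for 1 and lower for 16. Macrophages were higher for 8 and lower for 3 (21.1% and 22.4% of all genes) and B cells for 11 and 6 (26.7% and 28.2%). T cells were higher for 1 and lower for 15 (26.4% and 30.1%), and the endothelial class for 3 and 5 (28.2% and 18.8%). For fibroblasts the shares of all genes were 26.1% higher and 24.7% lower, and for smooth muscle 28.3% and 25.7%. The lower counts of B cells and of the endothelial class are near these shares. Serpinh1, the collagen chaperone, was at 2.04 in fibroblasts (adjusted p = 1.6379e-12) and Sdf2l1 at 2.01 in macrophages (adjusted p = 2.6309e-08). LysM-DKO on normal diet had 13 of 141 values past the fold higher and 0 lower (9.22% higher against 7.93% of all values), with Sdf2l1 at a median of 0.76 over 5 classes. On western diet 14 of 115 were higher and 1 lower (12.2% against 7.55%). Western over normal diet gave 38 higher and 20 lower of 143 in WT (26.6% against 18.5% and 14% against 13.8%), where Sdf2l1 (1.62), Pdia3 (0.78) and Hyou1 (0.74) were higher and the stress-response genes Atf4 (-0.94), Ppp1r15a (-0.95) and Ddit3 (-0.85) lower. In LysM-DKO 37 were higher and 10 lower of 119 (31.1% higher against 14% of all values).

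The 20 immediate early genes were called higher in 9 and lower in 6 in macrophages, led by Atf3 and Hbegf (both 1.67, adjusted p = 2.4269e-10 and 4.4886e-05). The endothelial class was higher for 12, fibroblasts for 10 and smooth muscle for 9, with 0, 0 and 1 lower. B cells were lower for 12 and T cells for 14, with 0 higher in both. Of all genes tested, 21.1% were called higher and 22.4% lower in macrophages, and 28.2% and 18.8% in the endothelial class. The shares were 26.1% and 24.7% in fibroblasts, and 28.3% and 25.7% in smooth muscle. They were 26.7% and 28.2% in B cells, and 26.4% and 30.1% in T cells. Between the western diet genotypes 15 of 100 values were past the fold higher and 6 lower, where 7.55% of all values were higher and 10.6% lower.

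Across the 23 sums, the members fell into patterns that are described here by Pearson's r of log2(CPM + 1). The points share libraries, depth and RNA carried over between classes. Hspa1a and Hspa1b had an r of 0.943, and Hspa1a had 0.777 with Hsp90aa1, 0.595 with Hspa8 and 0.576 with Dnajb1. Hsph1 was near 0 with Hspa1a (0.125) and was closest to Hspb1 (0.814) and Dnaja1 (0.752). Hspa5 had no r above 0.336 with any other member. Among 3262 other genes, those most like Hspa1a were Fbxo30 (0.863), Clic4 (0.834), Mef2a (0.803), Mir22hg (0.774) and Gclm (0.773). Those most like Hspb1 were Vcl (0.958), Stbd1 (0.95), Gnai1 (0.943), Filip1 (0.938) and Ccdc107 (0.933). For Hspa8 they were Rapgef2 (0.805), Cited2 (0.796), Id2 (0.778), Furin (0.756) and Ppp1r12c (0.735), and for Hspa5 Phlda1 (0.828), Acap2 (0.824), Ubb (0.822), Bst2 (0.821) and Itm2b (0.821).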

How the data were processed

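The authors counted UMIs per gene and barcode with Cell Ranger, 6.0.1 for the normal diet and 6.1.2 for the western diet libraries per the file headers, and deposited the counts as whole numbers without scaling. The build is mm10 per the submitters' processing notes, and the annotation release is not given in the sources used here. The members, gene lists and tests were chosen with earlier results of these data known.

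Kept barcodes held 1000 UMIs or more, of which no more than 10% were mitochondrial, and were put in the first class whose rule they met: at least 5 UMIs of C1qa, C1qb and C1qc together (macrophage), 2 of Cd79a and Ms4a1 (B), 2 of Cd3d, Cd3e and Trac (T), 2 of Pecam1 and Cdh5 (endothelial), 3 of Pdgfra and Serpinf1 (fibroblast), or 3 of Myh11 and Cnn1 (smooth muscle). No doublet caller was run, and barcodes that met more than 1 rule were left out as an alternative. UMIs were summed per library and class, and sums of under 20 barcodes were left out. Classes were compared with edgeR 4.0.16 (quasi-likelihood, TMM, filterByExpr, library as a block, R 4.3.3), with DESeq2 1.42.0 as an alternative. The scripts were tested on simulated data. Nothing says how many animals each library holds. The library term takes out shifts shared by all classes, so p-values set the mean class difference against how far class differences vary between libraries.

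All members are named. Of the other lists at most 3 genes per direction and contrast between libraries (largest median log2 ratio) and 2 per direction and class (largest called fold change) qualified, and per-class levels of genes so named may be given. Median ratios needed 50 UMIs in at least 3 classes. Likeness, for Hspa1a, Hspa5, Hspa8 and Hspb1, was computed among genes of at least 50 CPM on average, without the class markers, the other members, and genes that are sex-linked, mitochondrial, or code for ribosomal proteins, hemoglobins or immunoglobulins. Alternatives were other limits on UMIs and mitochondrial share, thinning, equal weight per barcode, other scalings and filters, and each library left out. The removal of smooth muscle RNA (each gene's smooth muscle level times the class's Acta2 share of it) was added after seeing the data.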

Additional observations from a re-analysis of the deposited data

Results flagged for a closer look

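The genotype ratio of Hspa1a in macrophages pointed in opposite directions on the 2 diets, past 1.5 fold on both: the level in LysM-DKO relative to WT had a log2 ratio of -0.62 on normal diet and of 0.66 on western diet. The difference was not tested, since each group is 1 library. With barcodes of 1 class rule only the ratios were 0.59 and 1.11, which point the same way, and with each barcode thinned to 1000 UMIs they were -0.44 and 1.23.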

How the results depend on the processing

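Of the ratios between libraries, 1791 comparisons of a ratio with its alternative stayed within the counting interval, 584 moved out of it and 8 called ratios changed direction. With barcodes of 1 class rule only, the changed directions were LysM-DKO over WT on normal diet for Hspa1a in macrophages (0.5914) and western over normal diet in WT for Hspb1 in T cells (-0.5416) and fibroblasts (-0.06997). Thinning reversed Hsph1 in macrophages between western diet genotypes (-0.1853). Removing smooth muscle RNA reversed Hsph1 in the endothelial class between western diet genotypes (-0.3202) and between diets in LysM-DKO (-0.4623), Hspb1 there between diets in LysM-DKO (-2.055), and Hspb1 in fibroblasts between diets in WT (-0.141). The cause was not tested.

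Counts of members past the fold moved as follows. For LysM-DKO over WT on normal diet, higher was 1 with barcodes of 1 rule, 1 with equal weight per barcode, 1 with thinning and 5 with smooth muscle RNA removed, where lower was 5. On western diet, lower was 0 with barcodes of 1 rule, 2 with thinning and 3 with smooth muscle RNA removed, and higher was 8 with thinning. For western over normal diet in WT, higher was 2 with barcodes of 1 rule and 12 with smooth muscle RNA removed. In LysM-DKO higher was 8 and lower 8 with barcodes of 1 rule, where T cells were too few, and lower was 8 with median-ratio scaling and 11 with smooth muscle RNA removed.

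Counts of members called between classes moved as follows. Endothelial higher was 2 at 5% mitochondrial UMIs, 3 without TMM and 2 without a count filter. Fibroblast lower was 1 with barcodes of 1 rule and 1 without TMM, and T higher was 1 without a count filter. Without the library term B lower was 2, T higher 1, T lower 1, fibroblast lower 0 and smooth muscle higher 2. Leaving out each library in turn gave ranges of 1 to 8 for B lower, 1 to 2 for T higher, 1 to 4 for T lower, 0 to 2 for fibroblast lower and 0 to 1 for smooth muscle lower. With 1 library per group, leaving it out removes a whole group, so contrasts between groups have no such alternative.

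No paired analysis was possible because each group is 1 library. In the LysM-DKO/ApoE-/- library B (14 barcodes) and T cells (33) limit what depth can show, as do 92 macrophage barcodes in WT on normal diet.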
